A study of Oryctolagus cuniculus with 6 samples.

Results

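The small leucine-rich proteoglycans of the corneal stroma were examined in primary limbal stem cells (LSCs) of the rabbit. They are 8 genes, chosen by name as keratocyte matrix genes, and all 8 were among the 22190 genes of the count table: DCN (decorin), LUM (lumican), KERA (keratocan), BGN (biglycan), FMOD (fibromodulin), OGN (osteoglycin), PRELP (proline and arginine rich end leucine rich repeat protein) and ASPN (asporin). RNA-seq libraries of polyA RNA were made from cells grown out of limbal explants, 3 for a fresh and 3 for a preconditioned group. In the fresh group the explants came from corneas that had been neither frozen nor given IL-1β. In the preconditioned group the whole cornea was kept for 7 days in liquid nitrogen, in a cryomedium that held serum, DMSO and 10 ng/mL IL-1β, an inflammatory cytokine, and was thawed before explants were taken. Freezing and IL-1β were given together, so their shares in any difference cannot be told apart. The explants were trephined from the limbus and cultured with their epithelium facing up, and the rabbit strain, age and number of animals are not given in the sources used here.

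These proteoglycans are secreted proteins whose leucine-rich repeats bind collagen fibrils. In the corneal stroma, keratocytes lay them between the fibrils, where lumican, keratocan and their relatives carry keratan sulfate chains and decorin and biglycan carry chondroitin or dermatan sulfate chains. Together they set the diameter and the spacing of the fibrils on which the transparency of the cornea depends. Cultured keratocytes that turn into fibroblasts are known to lose keratocan and to keep or gain biglycan.

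The libraries held 31952352 to 34327534 counts on genes. Counts were scaled by the TMM factors of edgeR, with values of 1.055 to 1.066 for fresh and 0.9138 to 0.965 for preconditioned libraries, and are given as CPM, the count per 1000000 counts of the scaled library. Libraries of the same group differed by a chi-square of 38.4 to 117 per degree of freedom, so none was a repeated deposit of another, which says nothing of their source. Whether the 3 libraries of a group came from separate animals is not given, so the p values measure only the spread between libraries. On the first principal component, preconditioned replicate 1 lay at 3.563, between the fresh libraries (−43.37 to −32.9) and the other preconditioned libraries (48.65 and 58.12). Epithelial genes were high in all 6 libraries. KRT5, a keratin of basal epithelium, had 7337 to 11740 CPM, and the summed level of the 12 epithelial markers in the table was 14515 to 20612 CPM, with overlapping groups. KRT12 and KRT14 were not found under these symbols. The summed level of 17 fibroblast markers was 979.6 to 2421 CPM in fresh and 2385 to 4261 CPM in preconditioned libraries. In bulk samples such as these, fewer stromal cells and less RNA per stromal cell cannot be told apart.

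No difference between the groups was detected for any of the 8 proteoglycan genes, and for each of them the libraries of the groups overlapped. Following the cutoffs of the study, a gene was called when its Benjamini-Hochberg adjusted p did not exceed 0.05 and its log2 fold change reached 1 in either direction. By edgeR's quasi-likelihood test 0 of 8 members passed these cutoffs, against 2.29% of the 15029 genes tested (1.08% higher and 1.2% lower), and without the fold change cutoff it was again 0 of 8, against 5.08%. At an unadjusted p of at most 0.05 there were also 0 of 8 members, against 30.6% of all tested genes. DESeq2 called 0 of 8 members (7.78% of all genes) and gave 1 member, KERA, an unadjusted p of at most 0.05, against 23% of all genes. Groups without overlap were found for 0 of 8 members and for 36.7% of all tested genes (17.9% higher and 18.8% lower). The log2 fold changes of the members ran from −1.27 to 1.18 with a median of 0.18, where the median of all tested genes was 0.01. The 95% intervals of all 8 were wide and held 0.

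**Figure D1:**
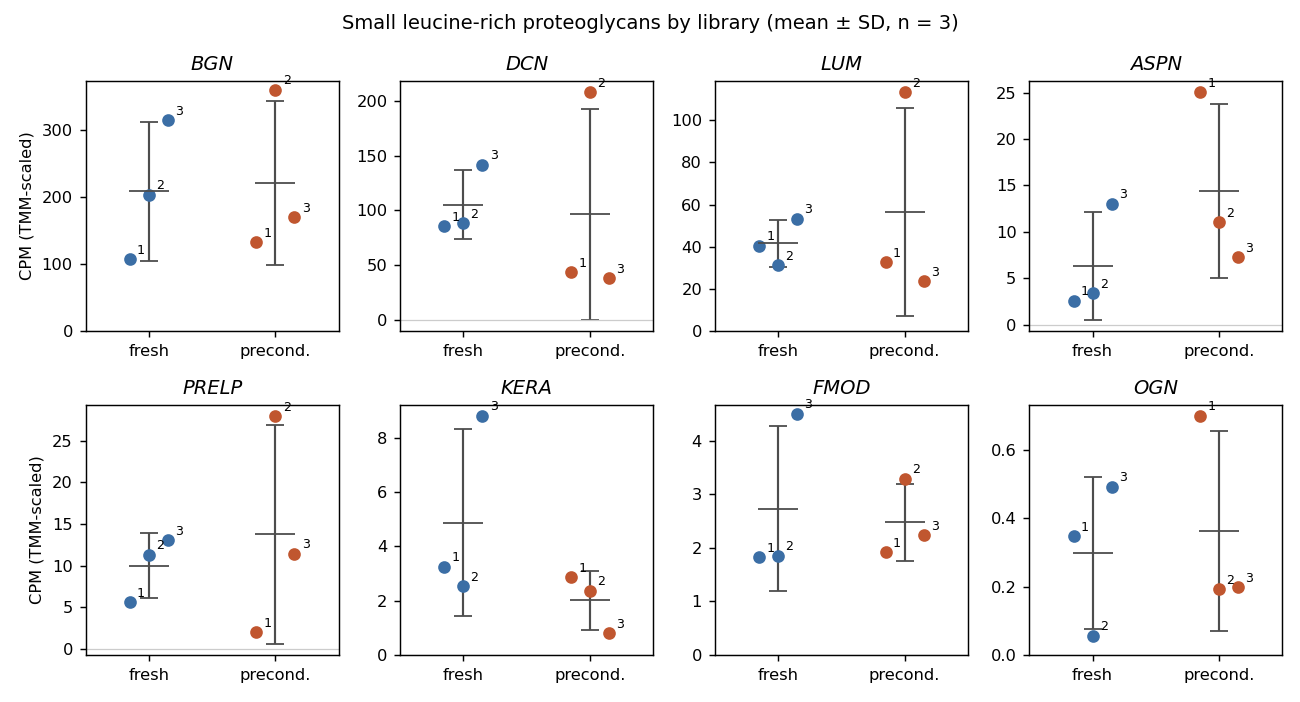
Expression of the 8 proteoglycans in each library. The y axis gives TMM-scaled CPM, points are libraries labelled with their replicate number, and bars give the mean and SD of 3 libraries per group. The groups overlap in each panel, and preconditioned replicate 2 is the highest library for BGN, DCN, LUM and PRELP.

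Per gene length, the proteoglycans fell into 3 abundant and 5 scarce genes. Levels are compared between genes as FPKM, the authors' values normalised for gene length and library size. BGN, a small proteoglycan that usually carries 2 glycosaminoglycan chains, was the most abundant in all 6 libraries at 50.6 to 149 FPKM. DCN followed at 17.9 to 93.4 FPKM and LUM at 12.1 to 55.7 FPKM, and in every library BGN exceeded DCN and DCN exceeded LUM. ASPN (1.05 to 9.34 FPKM), PRELP (0.559 to 7.48 FPKM), KERA (0.329 to 4.11 FPKM) and FMOD (0.918 to 2.39 FPKM) came next. Neighbours in that part of the order did not separate, since ASPN exceeded PRELP in 2 of 6 libraries, PRELP exceeded KERA in 4 of 6, and KERA exceeded FMOD in 4 of 6. OGN was the lowest in every library at 0.0240 to 0.272 FPKM, which rested on 2 to 23 counts.

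Decorin binds collagen I and carries a single chondroitin or dermatan sulfate chain. In the fresh libraries 1, 2 and 3, DCN had 85.8, 88.6 and 142 CPM, and in the preconditioned libraries it had 43.3, 208 and 38.3 CPM. Preconditioned replicates 1 and 3 lay below all fresh libraries and preconditioned replicate 2 above them. The means were 105 ± 31.7 and 96.5 ± 96.5 CPM, respectively (SD, n = 3 each), and the log2 fold change was −0.13 ± 0.66 (SE, 95% interval −1.70 to 1.45, edgeR adjusted p = 0.92). The value depended on single libraries. The log2 fold change was −1.37 without preconditioned replicate 2 (adjusted p = 0.13), and it was above 0 without fresh replicate 3 (0.14), preconditioned replicate 1 (0.21) or preconditioned replicate 3 (0.26).

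Biglycan is the closest relative of decorin, is made by fibroblasts of many tissues and is bound by TLR2 and TLR4 when it is released from the matrix. BGN had 108, 204 and 315 CPM in the fresh libraries and 133, 361 and 170 CPM in the preconditioned libraries. The fresh libraries spanned nearly the whole range of the preconditioned ones, and the highest to lowest ratio was 2.92 in the fresh and 2.71 in the preconditioned group. The log2 fold change was 0.08 (SE 0.49, 95% interval −1.08 to 1.25, edgeR adjusted p = 0.93). A change of more than 2.37-fold upward or to less than 0.473 of the fresh level lay outside this interval.

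Lumican is the major keratan sulfate proteoglycan of the cornea and is needed for regular fibrils. LUM had 40.4, 31.3 and 53.3 CPM in the fresh libraries and 32.6, 113 and 23.6 CPM in the preconditioned libraries. As for DCN, preconditioned replicate 2 was the highest of the 6 libraries and preconditioned replicate 3 the lowest. The log2 fold change of 0.44 (SE 0.58, edgeR adjusted p = 0.64) was −0.57 without preconditioned replicate 2.

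Keratocan is the member most restricted to keratocytes. KERA had 3.25, 2.53 and 8.81 CPM in the fresh libraries and 2.86, 2.37 and 0.790 CPM in the preconditioned libraries. Fresh replicate 3 and preconditioned replicate 3 were the extremes, and preconditioned replicate 1 lay between fresh replicates 1 and 2. The means were 4.86 ± 3.435 and 2.01 ± 1.08 CPM, respectively (SD, n = 3 each). Its log2 fold change of −1.27 was the lowest of the members (SE 0.63, 95% interval −2.76 to 0.21, edgeR adjusted p = 0.22). It was −0.53 without fresh replicate 3.

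Fibromodulin and PRELP belong to the same class as lumican. FMOD steers the early growth of collagen fibrils, and had 1.83, 1.86 and 4.51 CPM in the fresh libraries and 1.92, 3.29 and 2.24 CPM in the preconditioned libraries. Fresh replicate 3 was the highest, and the log2 fold change was −0.14 (SE 0.45, edgeR adjusted p = 0.86). PRELP, which anchors basement membranes to the underlying tissue through heparan sulfate, had 5.59, 11.3 and 13.0 CPM in the fresh libraries and 1.98, 27.9 and 11.4 CPM in the preconditioned libraries. Its preconditioned libraries held both the lowest and the highest value and differed by 14.1-fold, the widest span of any member within that group. The log2 fold change was 0.47 (SE 0.82, edgeR adjusted p = 0.73).

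Asporin lacks glycosaminoglycan chains and competes with decorin for collagen. ASPN had 2.58, 3.43 and 13.0 CPM in the fresh libraries and 25.0, 11.0 and 7.28 CPM in the preconditioned libraries. Here preconditioned replicate 1 was the highest library, and fresh replicate 3 lay above the other preconditioned libraries. The log2 fold change of 1.18 was the highest of the members (SE 0.72, 95% interval −0.52 to 2.89, edgeR adjusted p = 0.30). It was 2.26 without fresh replicate 3 (adjusted p = 0.11) and 0.51 without preconditioned replicate 1 (adjusted p = 0.65). Osteoglycin, also called mimecan, is known from the corneal stroma as a keratan sulfate proteoglycan. OGN had 12, 2 and 18 counts in the fresh libraries and 23, 6 and 6 counts in the preconditioned libraries, and no difference was detected (log2 fold change 0.28, 95% interval −1.70 to 2.26, edgeR adjusted p = 0.85).

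**Figure D2:**
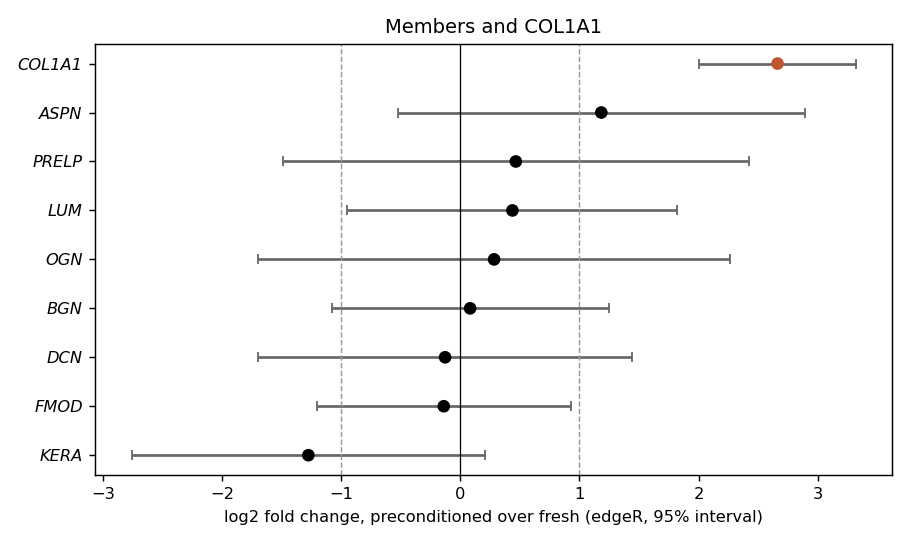
Log2 fold change of each member and of COL1A1, preconditioned over fresh, from edgeR's quasi-likelihood fit. Points are estimates, bars are 95% intervals, and dashed lines mark the fold change cutoff of 1 in either direction. The intervals of all 8 members hold 0, while that of COL1A1 runs from 2.003 to 3.32.

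The spread between libraries of the same group was larger for these genes than for the median tested gene. The SD of log2(CPM + 0.5) within groups was 0.44 (OGN) to 1.33 (PRELP), and in all 8 members it exceeded 0.25, the median of all tested genes. The value of OGN is held down by the 0.5 added to CPM, which is above its mean level in both groups, and OGN had the widest span of the members within the fresh group (8.75-fold). The median SD of the members was 0.84, and it was 0.72 for the fibroblast markers, 0.71 for the fibril partners and 0.80 for the leukocyte markers, which are close to it. Genes in the same expression decile as DCN had a median SD of 0.16, where DCN had 0.998. For BGN the values were 0.17 and 0.76, and for PRELP 0.25 and 1.33. These values rested on 1164 to 6503 counts for DCN and 3717 to 11519 counts for BGN.

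BGN, DCN and LUM made up most of the proteoglycan transcripts in every library, whatever their amount. The FPKM of the 8 genes added up to 123, 167 and 271 in the fresh libraries and to 107, 310 and 109 in the preconditioned libraries. BGN took 41.0% to 57.5% of the sum in fresh and 47.3% to 65.9% in preconditioned libraries. DCN took 27.5% to 36.0% and 16.4% to 30.2%, and LUM 10.7% to 18.6% and 11.1% to 18.0%, respectively. ASPN reached 8.75% in preconditioned replicate 1 and stayed between 0.842% and 2.45% in the other libraries. The groups overlapped in the share of each member. These shares are sums over transcripts per length and do not measure protein.

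**Figure D3:**
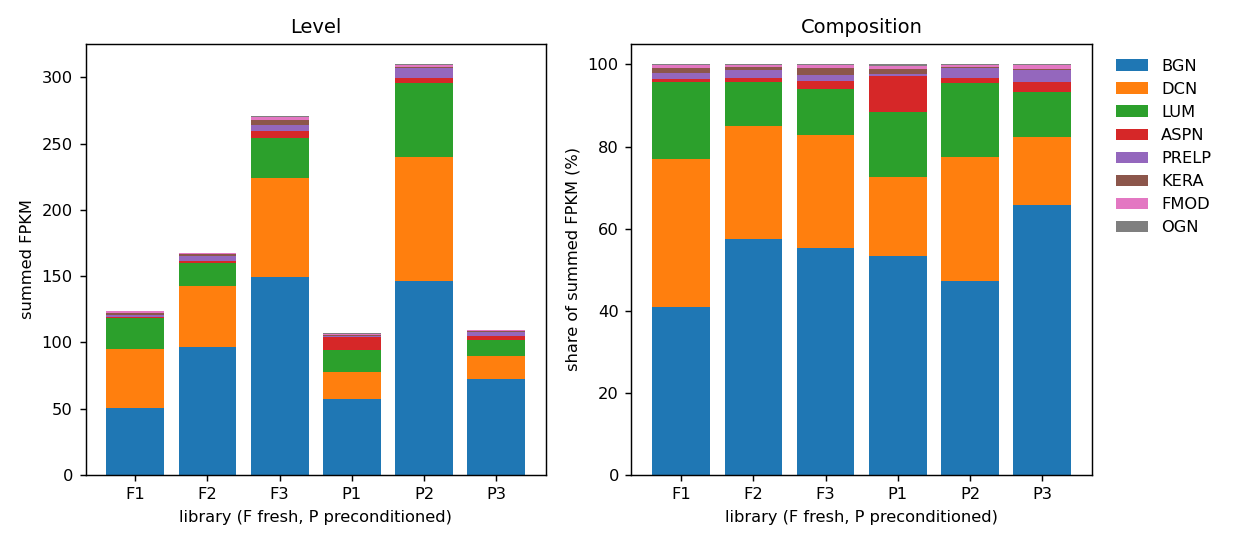
Summed FPKM of the 8 proteoglycans (left) and the share of each in percent (right), for 3 fresh (F) and 3 preconditioned (P) libraries. Fresh replicate 3 and preconditioned replicate 2 have the highest sums, at 271 and 310 FPKM, and BGN, DCN and LUM make up most of the sum in every library.

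Ratios between members within a library do not depend on scaling. All 28 pairs were compared with an exact, 2-sided permutation test, in which 0.1 is the smallest p that 3 libraries against 3 allow. Fresh and preconditioned libraries were separated in 3 of the 28 ratios, LUM to DCN, ASPN to KERA and ASPN to FMOD, and each had an adjusted p of 0.70 over the 28. LUM had 0.471, 0.354 and 0.375 counts per count of DCN in the fresh libraries and 0.752, 0.544 and 0.615 in the preconditioned libraries, so that the ratio was 1.59-fold higher. Among the preconditioned libraries, where DCN spanned 5.43-fold and LUM 4.80-fold, the ratio stayed between 0.544 and 0.752. ASPN had 0.795, 1.36 and 1.48 counts per count of KERA in the fresh libraries and 8.74, 4.66 and 9.21 in the preconditioned libraries, a 6.12-fold higher ratio. The ratio of ASPN to FMOD was 2.65-fold higher. As background, the share of all other tested genes whose ratio to a member did not overlap was 4.74% for DCN, 4.49% for LUM, 28% for KERA, 4.78% for BGN, 8.12% for FMOD, 4.3% for OGN, 1.75% for PRELP and 14% for ASPN.

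Most of these genes lie in clusters of leucine-rich proteoglycan genes. In the RefSeq gene table of the rabbit assembly mOryCun1.1, used for gene order only because the build of the counts is not given in the sources used here, EPYC, KERA, LUM and DCN are consecutive. ECM2, ASPN, OMD and OGN form another run, FMOD, PRELP and OPTC are also consecutive, and BGN lies alone. Of the cluster mates that are not members, OPTC was not found in the count table under this symbol. EPYC (epiphycan, a cartilage proteoglycan) had 0.169 to 2.27 CPM in the fresh libraries, highest in replicate 3 as for KERA, and 0.152 to 0.256 CPM in the preconditioned libraries. OMD (osteomodulin) had at most 10 counts in any library. Of the consecutive members, KERA was highest in fresh replicate 3, and LUM and DCN were highest in preconditioned replicate 2. Of 9 further leucine-rich proteoglycans on the list, 8 were in the table, 4 passed the filter on low counts and 0 of these were called. TSKU (tsukushi), the most abundant of them, had 31.2 to 47.4 CPM in fresh and 31.4 to 49.0 CPM in preconditioned libraries.

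Among the collagens that these proteoglycans bind, COL1A1 rose in the preconditioned group. COL1A1, the main chain of the collagen I fibril, had 56.8, 109 and 108 CPM in the fresh libraries and 537, 693 and 505 CPM in the preconditioned libraries, a 6.33-fold rise (log2 fold change 2.66, SE 0.28, edgeR adjusted p = 0.015). The call was lost without fresh replicate 2 (adjusted p = 0.069) and without preconditioned replicate 2 (adjusted p = 0.068), with log2 fold changes of 2.80 and 2.51. Among 16 fibril collagens, cross-linking enzymes and other fibril partners tested, COL1A1 was the 1 gene that passed both cutoffs in edgeR, and the median log2 fold change was 0.85. DESeq2 called COL6A1, COL6A2, COL6A3 and THBS1 as well. LOXL2, a collagen cross-linking enzyme, passed the adjusted p but not the fold change cutoff, at 162 ± 18.4 and 81.9 ± 11.6 CPM (SD, n = 3 each; log2 fold change −0.98, adjusted p = 0.031). The adjusted p of LOXL2 was 0.0837 with the replicate block and 0.0729 to 0.129 without any fresh library or without preconditioned replicate 2 or 3, and LOXL2 passed both cutoffs with library size alone, with both limma fits and without preconditioned replicate 1. COL6A3, a chain of the beaded filaments to which decorin and biglycan bind, showed a log2 fold change of 1.83 (edgeR adjusted p = 0.052). COL6A3 passed with DESeq2 (adjusted p = 0.000155), library size alone (0.048), the filter of 1 CPM (0.0492) and without preconditioned replicate 1 (0.0299). COL1A2 had 50.2 to 178 CPM in the fresh and 150.3 to 269.9 CPM in the preconditioned libraries (log2 fold change 1.11, adjusted p = 0.17), and COL12A1, a collagen on the fibril surface, showed a log2 fold change of 0.46 (edgeR adjusted p = 0.56).

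Proteoglycan counts were also taken per count of COL1A1, and most of these ratios had lower values in the preconditioned libraries. DCN had 1.51, 0.816 and 1.31 counts per COL1A1 count in the fresh libraries and 0.0806, 0.3003 and 0.07596 in the preconditioned libraries. BGN had 1.90, 1.88 and 2.90 against 0.247, 0.521 and 0.337, respectively. Libraries were separated by group for 6 of the 8 members, the exceptions being OGN and ASPN (exact permutation p = 0.1 for each of the 6, adjusted p = 0.13 over the 8 ratios). The ratio to COL1A1 was separated in the same direction for 95.2% of all other tested genes, a share above that of the members.

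The fibroblast markers did not share a single pattern over the libraries. Of the 17, 7 were highest in preconditioned replicate 2, 5 in fresh replicate 3, 3 in preconditioned replicate 1 and 2 in fresh replicate 2. VIM (vimentin) had 239.6, 406 and 425 CPM in the fresh libraries and 252, 735 and 450.1 CPM in the preconditioned libraries, and FN1 (fibronectin) had 373, 882 and 923 against 814, 1812 and 955 CPM. Preconditioned replicate 2 was the highest library for VIM and FN1, as it was for BGN, DCN, LUM and PRELP. The sum of the fibroblast markers was also highest there (4261 CPM, against 2385 and 2484 CPM in the other preconditioned libraries). Of these 17 fibroblast markers, COL1A1 passed both cutoffs, higher in the preconditioned group, and FBLN1 passed the adjusted p alone, lower in that group. The log2 fold change was above 0 for 11 of the 17 and below 0 for 6. It ran from −2.15 to 2.66 with a median of 0.43.

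BGN was also set against the summed fibroblast markers of the same library. Per 1000 counts of these markers, BGN had 110, 108 and 130.1 counts in the fresh libraries and 55.7, 84.6 and 68.5 in the preconditioned libraries. The groups did not overlap for BGN, FMOD and KERA, all lower in the preconditioned group (exact permutation p = 0.1 each, adjusted p = 0.27 over the 8 members), where 32.4% of all tested genes were separated, 31.6% in this direction. KERA had 3.31, 1.35 and 3.64 against 1.199, 0.555 and 0.318. DCN overlapped, with 87.6, 47.1 and 58.6 against 18.2, 48.8 and 15.4. Without COL1A1 in the sum, only BGN was separated, against 16.2% of all tested genes (exact permutation p = 0.1, adjusted p = 0.40 over the 8 members). BGN then had 117, 115 and 136 per 1000 counts in the fresh libraries and 71.9, 101 and 85.9 in the preconditioned libraries, and KERA and FMOD overlapped. Both ratios were chosen after the values had been seen. The part of stromal cell number in the levels of the members was not tested.

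**Figure D4:**
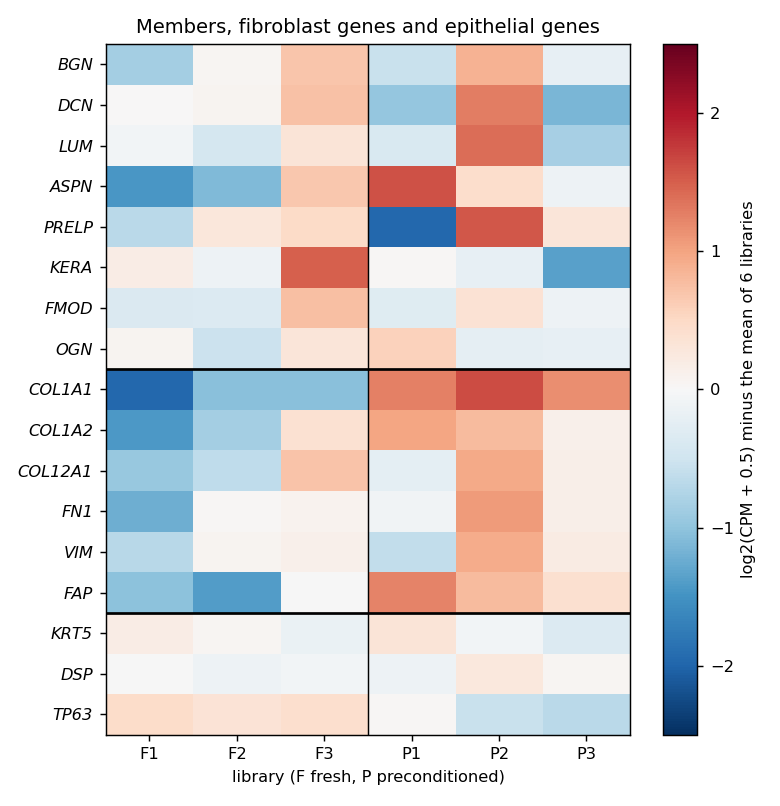
Members (top), fibroblast genes (middle) and epithelial genes (bottom) in the 6 libraries, as log2(CPM + 0.5) minus the mean of the gene over the libraries. Preconditioned replicate 2 (P2) is high for BGN, DCN, LUM, PRELP, FN1 and VIM, whereas COL1A1 is higher in all 3 preconditioned libraries than in all 3 fresh ones.

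Of the other keratocyte markers, most had lower estimates in the preconditioned group. Of 11 keratocyte markers in the table, 8 were tested, 7 had a log2 fold change below 0, and the median was −0.72. Of all 15029 tested genes, 7434 had a log2 fold change below 0. The summed level of the 11 markers was 3766, 4047 and 3054 CPM in the fresh libraries. It was 3485, 2512 and 4832 CPM in the preconditioned libraries, so the groups overlapped in this sum. In edgeR 1 of the 8 was called, against 2.29% of all tested genes. TKT (transketolase), a crystallin of the cornea found in epithelium as well as in keratocytes, was the 1 called and fell from 1330 ± 247 to 639 ± 163 CPM (SD, n = 3 each; log2 fold change −1.06, edgeR adjusted p = 0.048). That call was lost in 6 of the 14 other settings, among them the fit with the replicate number as a block (adjusted p = 0.11) and the omission of any fresh library or of preconditioned replicate 2 or 3 (adjusted p = 0.078 to 0.16). ALDH1A1, another corneal crystallin shared with the epithelium, showed a log2 fold change of 1.01 (edgeR adjusted p = 0.0505). ALDH1A1 passed both cutoffs, higher, with DESeq2 (adjusted p = 0.00127), no filter (0.0324), the filter of 1 CPM (0.0489) and without preconditioned replicate 1 (0.0329). AQP1, a water channel of keratocytes and corneal endothelium, had 53.2, 47.4 and 199 CPM in the fresh libraries and 18.9, 23.6 and 17.2 CPM in the preconditioned libraries (log2 fold change −2.33, adjusted p = 0.061). AQP1 was called by DESeq2 (adjusted p = 0.000102) and with library size alone (0.0475), and its log2 fold change was −1.34 without fresh replicate 3 (adjusted p = 0.0575). The groups did not overlap for AQP1, and fresh replicate 3 was the highest library, as for KERA and FMOD. The enzymes that mark keratan sulfate synthesis in keratocytes, CHST6 and B3GNT7, stayed below 1 CPM in all 6 libraries. CD34 was also below 1 CPM in every library. PTGDS, a keratocyte marker, had 5.10, 0.225 and 3.47 CPM in the fresh libraries and at most 0.213 CPM in the preconditioned ones, and did not pass the filter on low counts. KERA and FMOD were highest in the library in which the summed level of 8 corneal endothelium markers was also highest. That sum was 347 CPM in fresh replicate 3 and 134 to 188 CPM in the other libraries. COL8A1, a collagen of Descemet membrane, made up 184 CPM of it there and had at most 53.3 CPM elsewhere. Of the 17 fibroblast markers, 5 were also highest in fresh replicate 3, and CDH2 is on both lists. Whether corneal endothelial cells were present, and their part in the levels of KERA and FMOD, was not tested.

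Markers of further cell types were examined in the same libraries. CDH5 and VWF, which define vascular endothelium, and PMEL and MLANA, which define melanocytes, were below 0.25 CPM in all libraries. Other markers of these lists were higher, with a mean of at least 1 CPM for PECAM1 and EMCN (vascular) and MITF (melanocyte). The summed level of the 8 vascular markers was 4.64 to 7.58 CPM in fresh libraries and 2.43, 15.5 and 8.56 CPM in the preconditioned ones, and that of the 7 melanocyte markers was 2.77 to 6.39 CPM. The 7 leukocyte markers in the table added up to 107 to 137 CPM in fresh libraries and 127, 328 and 295 CPM in the preconditioned ones, most of it CD68, a lysosomal protein. The other leukocyte markers were low, and CD14, CD163, CSF1R, TYROBP and PTPRC were each highest in preconditioned replicate 2, as were BGN, DCN, LUM and PRELP. CD14 had 4.90, 4.39 and 7.82 CPM in the fresh libraries and 3.59, 11.4 and 2.37 CPM in the preconditioned ones, PTPRC did not exceed 1.503 CPM, and CD3E, which defines T cells, had at most 1 count. The part of leukocytes in these levels was not tested. The 6 conjunctival markers in the table added up to 534 to 969 CPM in fresh and 399.6 to 1229 CPM in preconditioned libraries, nearly all of it KRT7, and of their goblet cell genes TFF3 had at most 1 count. No gene of the epithelial, endothelial, vascular, melanocyte, leukocyte or conjunctival lists was called. Of the 12 epithelial markers, 1 passed the adjusted p alone, higher (edgeR adjusted p = 0.039), against 5.08% of all tested genes at this cutoff. All 6 leukocyte markers tested had a log2 fold change above 0, as had 7595 of all 15029 tested genes. The median of the 6 was 0.72, and their smallest edgeR adjusted p was 0.085. RGS5, a pericyte marker, was called in the myofibroblast and mural list, at 0.789 ± 0.169 CPM in the fresh libraries (SD, n = 3) and 54.3, 31.8 and 2.86 CPM in the preconditioned libraries (log2 fold change 5.23, edgeR adjusted p = 0.045). The call of RGS5 was lost in 8 of the 14 other settings, among them the omission of any fresh library (adjusted p = 0.12 to 0.16) or of preconditioned replicate 2 (adjusted p = 0.15). ACTA2, the smooth muscle actin of myofibroblasts, was highest in preconditioned replicate 1 (88.4 CPM, against 15.4 to 48.2 CPM in the other libraries), the library in which ASPN was also highest.

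Genes for the synthesis of the chains of these proteoglycans were tested in the same fit. Of 11 keratan sulfate genes tested, 0 passed both cutoffs and the median log2 fold change was 0.10. B4GALT1, a galactosyltransferase of general use, passed the adjusted p without reaching the fold change cutoff, at 275 ± 7.94 and 190 ± 9.55 CPM (SD, n = 3 each; log2 fold change −0.53, adjusted p = 0.039). The adjusted p of B4GALT1 was 0.11 with the replicate block and 0.0941 to 0.146 without any fresh library or without preconditioned replicate 2 or 3. B4GALT4, the galactosyltransferase that extends keratan sulfate, had 13.2 to 16.5 CPM in the fresh libraries and 15.5, 29.9 and 40.6 CPM in the preconditioned libraries (log2 fold change 0.98, adjusted p = 0.10). ST3GAL2, a sialyltransferase, showed a log2 fold change of −0.72 (edgeR adjusted p = 0.085). Of 21 chondroitin and dermatan sulfate genes tested, 0 passed, and the median was −0.08. DSE, the epimerase that turns chondroitin into dermatan sulfate, had 91.6 to 124 CPM in the fresh and 139 to 213 CPM in the preconditioned libraries, without overlap (log2 fold change 0.74, adjusted p = 0.061). CSGALNACT2, which starts chondroitin chains, showed a log2 fold change of 0.72 (edgeR adjusted p = 0.060), and CHST12, a chondroitin 4-O-sulfotransferase, showed a log2 fold change of −1.06 (edgeR adjusted p = 0.11) and was called by DESeq2. Libraries of the groups were separated for 9 of the 21 genes, 4 higher and 5 lower, where 36.7% of all tested genes were separated.

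Proteases that cut the proteoglycans, and their receptors, were also tested. Of 13 genes for processing and cleavage, 0 passed and the median log2 fold change was 0.02. BMP1, which removes the propeptide of biglycan, had 39.6 to 75.2 CPM with overlapping groups. MMP13, a collagenase that also cuts fibromodulin and biglycan, had 21.7 to 33.0 CPM in the fresh libraries and 32.6, 74.5 and 62.8 CPM in the preconditioned libraries (log2 fold change 1.13, adjusted p = 0.076), and was called by DESeq2 and without preconditioned replicate 1. MMP3, which cuts decorin, showed a log2 fold change of −0.89 (edgeR adjusted p = 0.41). Of 15 receptors and ligands, 0 passed and the median was −0.03. TLR2 and TLR4, receptors of soluble biglycan, had log2 fold changes of −1.08 and −1.11 (adjusted p = 0.17 and 0.26). FAS, a death receptor gene listed with these receptors, showed a log2 fold change of 0.92 (edgeR adjusted p = 0.070).

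Of the proteoglycans outside the family, SDC1 was the most abundant. SDC1 (syndecan 1), the main heparan sulfate proteoglycan of epithelial cells, had 1464 to 1699 CPM in the fresh and 2074 to 2700 CPM in the preconditioned libraries (log2 fold change 0.55, adjusted p = 0.063). Of 19 such genes tested, 0 passed both cutoffs, and the median log2 fold change was 0.29. AGRN (agrin), a basement membrane proteoglycan, passed the adjusted p alone, at 312 ± 50.6 and 162 ± 11.6 CPM (SD, n = 3 each; log2 fold change −0.95, adjusted p = 0.031). The adjusted p of AGRN was 0.0878 with the replicate block and 0.0632 to 0.131 without any fresh library or without preconditioned replicate 2 or 3, and AGRN passed both cutoffs with library size alone and with both limma fits. ACAN (aggrecan), a large chondroitin sulfate proteoglycan best known from cartilage, had 1.25, 0.563 and 2.32 CPM in the fresh libraries and 5.05, 6.04 and 9.42 CPM in the preconditioned libraries (log2 fold change 2.31, adjusted p = 0.052). ACAN passed both cutoffs with DESeq2 (adjusted p = 0.000155), no filter (0.0347), the filter of 1 CPM (0.05), limma on log2(FPKM + 0.1) (0.0478) and without preconditioned replicate 1 (0.0265).

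**Figure D5:**
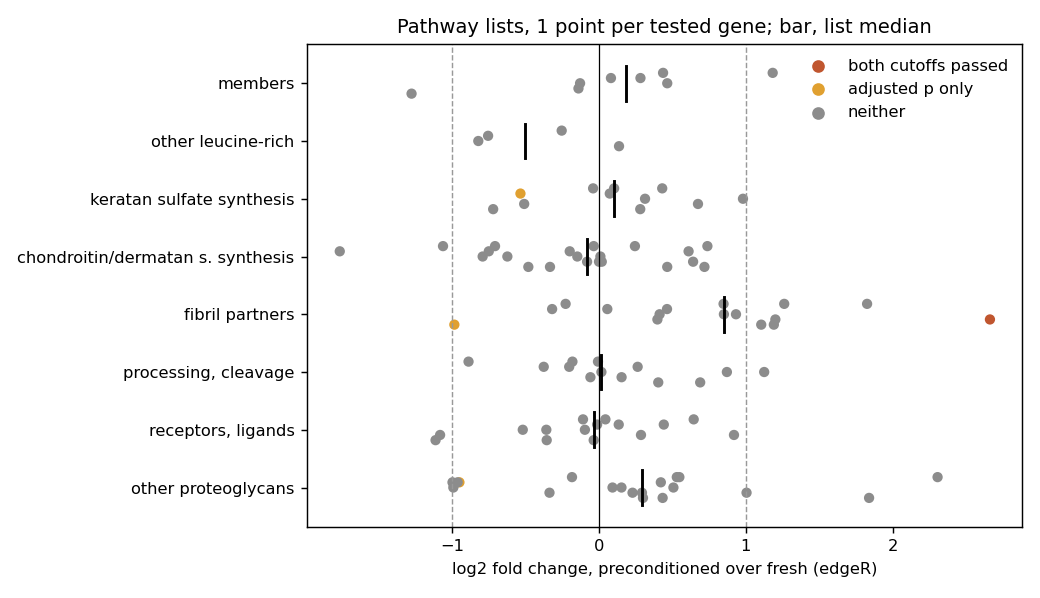
Log2 fold changes, preconditioned over fresh, of the members and of 7 lists of genes around them, with 1 point per tested gene and a bar at the list median. Dashed lines mark the fold change cutoff of 1 in either direction. COL1A1, at 2.66 among the fibril partners, is the 1 gene that passed both cutoffs in edgeR, and B4GALT1, LOXL2 and AGRN passed the adjusted p alone.

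The genes most like each member over the 6 libraries were found by Pearson's r of log2(CPM + 0.5) among 10960 named genes with a mean of at least 1 CPM. For BGN these were MAOA, LCAT, RAMP2, MXRA8 and TGFB2 (r = 0.985 to 0.9935), for DCN SLCO2A1, WDR35, KRTCAP2, CD14 and CTSK (r = 0.969 to 0.986), and for LUM KRTCAP2, DUSP10, CD14, TMEM109 and RPN2 (r = 0.949 to 0.970). The lists of DCN and LUM shared KRTCAP2 and CD14. For ASPN the closest genes were TIMM10B, CHST3, TPGS1, ACTA2 and ITPRIPL2 (r = 0.984 to 0.992), and for PRELP the closest was CA9 (r = 0.997). For FMOD the closest was CLPTM1L (r = 0.985). These are the highest values over a large number of candidates and 6 libraries and are given as a description.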

How the data were processed

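RNA-seq of 3 fresh and 3 preconditioned libraries was used. The authors aligned reads with hisat2 and deposited raw counts per gene from htseq-count, together with FPKM values. The FPKM values the authors deposited equal the count divided by the library's total and by 1 length per gene. The genome build, annotation and strand setting are not given in the sources used here, and reads of overlapping genes cannot be told apart. The number of per-sample columns left out was 0.

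The groups were compared with edgeR 4.0.16 in R 4.3.3 (filterByExpr, TMM, robust quasi-likelihood test, no covariate), with Benjamini-Hochberg adjustment over all 15029 tested genes. Standard errors and 95% intervals came from the F statistic. With 3 libraries per group and at least 31952352 counts each, the precision was taken from the spread between libraries, and OGN had few counts (2 to 23). Alternatives were DESeq2 1.42.0, its size factors, library size alone, other filters, a block for the replicate number, omission of each library, a fibroblast sum without COL1A1 (added after seeing the data), no fold change cutoff, and limma 3.58.1 on log2(FPKM + 1) and log2(FPKM + 0.1). The edgeR and DESeq2 fits were also run on simulated counts, in which the spread was not set to that of the members. The outcome is not reported here, and no result above rests on it.

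The members and lists were chosen with earlier results of these data known. From each list, the called genes were named, with some of those that had the highest mean or the largest change. Others of these, among them CTSB, MMP14, CD44, PRG4 and VCAN, are not described here. LOXL2, AGRN, FBLN1, COL6A1, COL6A2, the markers with values near 0, PTGDS and the leukocyte markers were named after their values had been seen. Deviations of same-numbered libraries from the group means had correlations of −0.118 to −0.0673, so the numbers were not taken as pairs. The pattern search took the 5 closest genes with at least 1 CPM. Not all of its results are reported here. All 8 members' identifiers matched the RefSeq table.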

Additional observations from a re-analysis of the deposited data

How the results depend on the processing

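The number of members called was 0 of 8 under each of the 15 alternatives. KERA (−1.63 to −0.53) and ASPN (0.51 to 2.26) kept their direction throughout, and none of the 8 directions passed a test. With limma on log2(FPKM + 1) and log2(FPKM + 0.1), LUM turned to −0.035 and −0.046, BGN to −0.0896 and −0.0902, and PRELP to −0.058 and −0.25, respectively. BGN turned to −0.10 with library size alone, and PRELP to −0.10 with the replicate block. Library size alone and limma on log2(FPKM + 0.1) moved the median of all genes to −0.161 and −0.157. When each library was left out, the log2 fold change ran from −1.37 to 0.26 for DCN, −0.57 to 0.81 for LUM, −0.46 to 0.50 for BGN, −0.39 to 0.43 for FMOD, −0.62 to 0.84 for OGN and −0.58 to 0.97 for PRELP. OGN could not be tested with the filter of 1 CPM.

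Of the genes in the lists around the members, 1 was called, against 8 with DESeq2, 5 with library size alone, 2 with no filter, 3 with the filter of 1 CPM, 4 and 5 with the limma fits, 4 without the fold change cutoff and 0 to 13 without 1 library (0 without fresh replicate 2 or preconditioned replicate 2, 13 without preconditioned replicate 1, among them B4GALT4, FAS and TLR2). Over all genes, 344 were called (163 higher, 181 lower), against 1190 with DESeq2, 565 with library size alone (142 higher, 423 lower), 584 with limma on log2(FPKM + 0.1) (148 higher, 436 lower), 763 without the fold change cutoff and 14 to 1546 without 1 library. With the replicate number as a block, 0 members, 1 gene of the lists and 30 genes in all were called. Whether libraries with the same number share an animal is not given, and their deviations showed no positive correlation (−0.118 to −0.0673). The cause of these shifts was not tested. OGN rested on 2 to 23 counts per library, and how far depth or the spread between libraries limits its value was not tested.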
